A study of Mus musculus with 4 samples.

Results

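Transcripts of 8 transcription factor genes that lymphocytes and myeloid cells switch on after stimulation were followed through the immune cells of mouse mammary tumours: Egr1, Egr2, Egr3, Nr4a1, Nr4a2, Nr4a3, Myc and Irf4. They are 8 of the 31053 genes in the count matrices, were found there by their symbols, and were chosen by their levels and ratios in these same cell types and genotypes, so every value below is a description and none carries a test. FVB/NJ mice of 12 weeks supplied the tumours, and FACS supplied the immune cells. The labels name 2 genotypes, PyMT, in which the polyoma middle T antigen drives mammary tumours, and Jagged1/PyMT, which shares PyMT and adds Jagged1, a membrane ligand of Notch receptors. How Jagged1 was altered, the promoter behind either genotype and the surface markers used for sorting are given neither by the labels nor by the series text. Each genotype has 2 samples, which lie in 1 matrix with no mark to part them. A genotype is therefore 1 library here, the spread between mice is unknown, and each 95% interval covers counting error only. PCR and pooling error are outside it.

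Barcodes counted as cells held at least 500 UMIs and 250 genes and at most 10% mitochondrial UMIs, a UMI being 1 captured transcript molecule. This left 7444 cells in PyMT (median 3841 UMIs, 36012036 UMIs in the whole matrix) and 7875 in Jagged1/PyMT (median 4200 UMIs, 55506773 in all). Jag1 itself had 67 UMIs (1.96 CPM, UMIs per 1000000) in PyMT cells and 886 (16.8 CPM) in Jagged1/PyMT cells. These are sums over all cells, and the part of the differing mix of cell types in them was not tested. Cells were gated on UMIs of lineage genes other than the 8 factors: the T gate held 4836 and 2497 cells (PyMT first throughout), the B gate 1384 and 1267, the macrophage gate 139 and 1614, and the neutrophil gate 103 and 331. These and the smaller gates left 796 cells (10.7%) and 1951 cells (24.8%) unused, of which 163 and 900 carried T and myeloid genes together. The libraries share 70 barcodes. A level is the sum of a gene's UMIs over a gate, in CPM of that gate's UMIs, and in sums of this kind fewer expressing cells and less RNA per cell cannot be told apart.

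All 8 genes belong to the early response to antigen receptor, growth factor and danger signals. The Egr genes encode zinc finger factors induced through the ERK pathway. Egr1 responds within minutes in almost any cell type, while Egr2 and Egr3 act downstream of NFAT in T cells, where they restrain the response and induce inhibitors such as Cblb. The Nr4a genes encode orphan nuclear receptors: Nr4a1 (Nur77) is a widely used reporter of antigen receptor signalling, and Nr4a2 and Nr4a3 (Nor1) are induced by calcium and cyclic AMP signals and, with Nr4a1, limit effector programmes in tumour-infiltrating T cells. Myc drives ribosome production, metabolism and cell growth. Irf4 is induced in proportion to the strength of the antigen receptor signal and serves plasma cells, activated regulatory T cells and some dendritic cells.

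The promoters of the Nr4a genes are shown because these family members parted from each other between the libraries while their promoters carry the same kind of element, the short form of the cyclic AMP response element (CRE) that CREB family factors bind. Windows of 250 bases before an annotated start were read from RefSeq (GRCm38.p6), and 5 of the 8 genes matched, with 9 windows. The short CRE searched was TGACG, with CGTCA as its other strand, and a full palindrome counts as both. Capitals mark the short CREs in the coding strand, 5′ to 3′.
Nr4a1, chr15:101266608-101266815, plus strand: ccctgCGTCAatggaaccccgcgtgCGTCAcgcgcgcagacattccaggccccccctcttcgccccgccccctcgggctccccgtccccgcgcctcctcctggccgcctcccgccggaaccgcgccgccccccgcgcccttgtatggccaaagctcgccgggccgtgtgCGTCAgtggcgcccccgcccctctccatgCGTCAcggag
Nr4a2, chr2:57124105-57124208, minus strand: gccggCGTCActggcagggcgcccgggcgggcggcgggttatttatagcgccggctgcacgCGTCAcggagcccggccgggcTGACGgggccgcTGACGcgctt
Nr4a3, chr4:48045069-48045167, plus strand: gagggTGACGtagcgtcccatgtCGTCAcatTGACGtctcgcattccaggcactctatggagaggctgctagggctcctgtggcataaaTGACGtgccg
Each of these windows held 4 short CREs. The printed stretch runs from 238 to 31 bases before the RefSeq start of Nr4a1, from 205 to 102 before that of Nr4a2 and from 236 to 138 before that of Nr4a3. GENCODE vM21 places 15 bases of the Nr4a3 stretch, and 0 of the others, in an exon. Of 32851 promoter windows, 17.8% held at least 1 and 0.137% held at least 4. Egr2 is shown beside them because 3 overlapping windows of its 5 also held, besides short CREs, a CArG box (CC, 6 A or T bases, GG), the element bound by serum response factor, which 1.47% of windows held.
Egr2, chr10:67537753-67537823, plus strand: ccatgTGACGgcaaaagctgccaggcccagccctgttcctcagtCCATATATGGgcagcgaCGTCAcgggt
Capitals there mark 2 short CREs around 1 CArG box. Of the other Egr2 windows, 1 held another CArG box and no short CRE, and 1 held neither. The Irf4 window held neither element. A match is only a match of letters, and binding was not measured.

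Among the 11 gates with at least 50 cells in each library, B cells held the highest levels of most of the factors. The B gate ranked first there in both libraries for Egr2, Egr3, Nr4a2, Myc and Irf4. For Egr2, Egr3 and Nr4a2 in PyMT its counting interval overlapped that of the next gate. Some smaller gates lay higher. Nr4a2 had 596 and 412 CPM in conventional dendritic cells, against 245 and 272 in B cells. In Jagged1/PyMT, Irf4 had 147 CPM in plasmacytoid dendritic cells, against 128 in B cells. Egr1, the general early response factor, was highest in neutrophils in PyMT (519.8 CPM, against 322 in macrophages and 305 in B cells), and highest in B cells in Jagged1/PyMT (635, against 565 in neutrophils and 428 in macrophages). T cells stood far below these, at 38.3 and 36.5 CPM. Nr4a1 was led by neutrophils (1473 CPM) and B cells (1372 CPM) in PyMT, where the counting intervals of these gates overlapped, and by B cells (1693 CPM) in Jagged1/PyMT.

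The other receptors of the Nr4a family had a different distribution over the same 11 gates. Nr4a3 was highest in mature dendritic cells, which have migrated or are ready to migrate to lymph nodes, with 323 CPM in PyMT and 262 in Jagged1/PyMT. Regulatory T-like cells came next in PyMT with 191 CPM. Among the gates of 20 to 49 cells, plasmacytoid dendritic cells had 422 CPM in PyMT. Of the T subsets among these 11 gates, regulatory T-like cells also had the highest Nr4a1 (290.5 and 330.2 CPM) and Irf4 (20.5 and 46.5 CPM) in both libraries. That gate takes T cells with at least 3 UMIs of Foxp3, Ikzf2, Il2ra and Ctla4 together and no Cd8 UMI. It requires neither Foxp3 nor Cd4. Il2ra is also one of the antigen receptor response genes counted below, and the part of this choice in the levels was not tested. Nr4a2 was low in naive-like CD4 T cells (21.0 and 8.86 CPM) and several times higher in effector-like CD8 T cells (113 and 91.1 CPM). Myc was concentrated in B cells, at 303 and 650.0 CPM, with at most 27.7 and 48.0 CPM in the T subsets of that size. Irf4 was nearly absent from macrophages (2.60 and 1.83 CPM, from 3 and 31 UMIs).

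**Figure D1:**
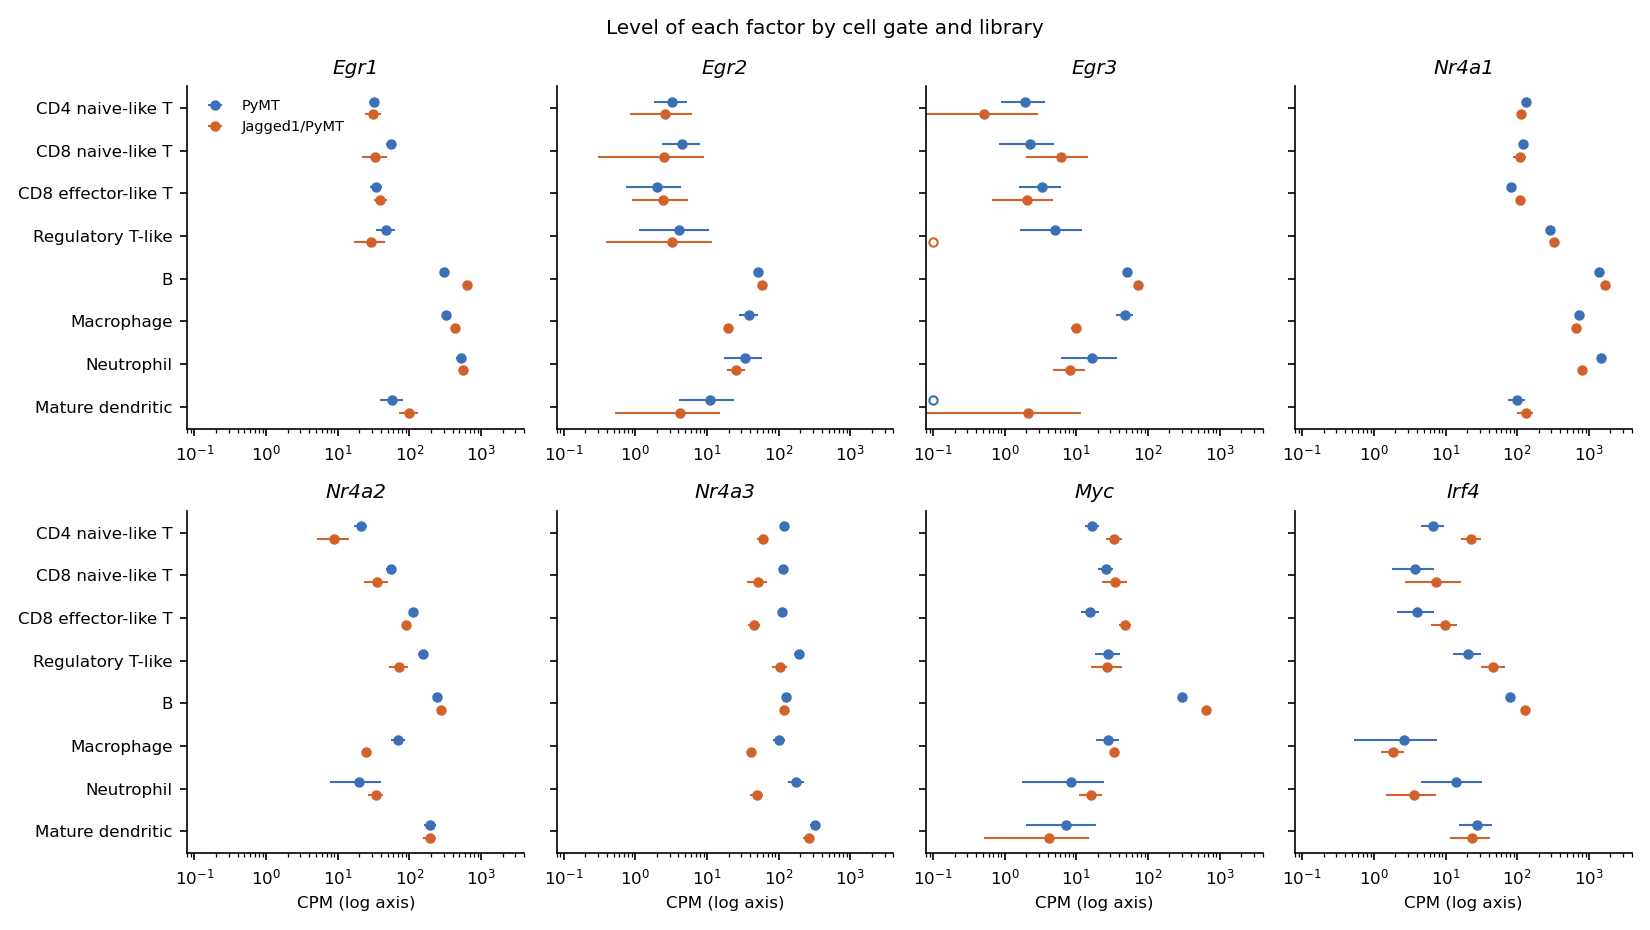
Level of each factor in CPM (log axis) in 8 of the gates, with PyMT in blue and Jagged1/PyMT in orange; bars are 95% exact Poisson intervals and open circles at the left edge mark 0 UMIs. B cells are at or near the right of most panels, and Nr4a3 lies to the left in Jagged1/PyMT in all 8 gates, with overlapping intervals in B cells and mature dendritic cells.

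In T cells, Nr4a2 and Nr4a3 pulled away from Nr4a1, and Myc and Irf4 went the other way. Nr4a3 stood at 119 CPM in PyMT and 54.1 in Jagged1/PyMT, a log2 ratio of -1.13 (95% interval -1.27 to -1.002). Nr4a2 was lower too, at 53.9 and 41.6 CPM (-0.38, interval -0.54 to -0.22). Nr4a1, the reporter of recent antigen receptor signalling, was nearly equal over the whole gate at 139 and 143 CPM (0.04), but its subsets pointed both ways. Nr4a1 was lower in naive-like CD4 cells (-0.25, interval -0.48 to -0.03) and in CD4 cells neither naive-like nor effector-like (-0.62, interval -1.10 to -0.15). It was higher in effector-like CD8 cells (0.40, interval 0.15 to 0.66) and in the small effector-like CD4 (0.83) and gamma-delta T-like (1.45) gates. In the other T subsets its interval included 0. Myc was higher in Jagged1/PyMT, 18.0 and 37.9 CPM (1.07, interval 0.86 to 1.28). Irf4 was higher still in ratio, 5.50 and 14.96 CPM (1.44, interval 1.09 to 1.80). So the intervals of Nr4a3 and Nr4a2 lay below 0 and those of Myc and Irf4 above it, in sums over the same gate. Such sums do not show whether the same single cells differed in both directions.

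Over the whole T gate, the counting interval of each Egr gene included 0. Egr1 had 38.3 and 36.5 CPM (-0.07), but in naive-like CD8 T cells it had 55.1 and 33.5 CPM (-0.72, interval -1.37 to -0.12). Egr2 and Egr3, the NFAT-dependent members, were scarce, at 3.57 and 3.03 CPM (-0.24) and at 2.80 and 1.80 CPM (-0.64, interval -1.47 to 0.13, from 58 and 19 UMIs), so a difference was not detectable at this depth. By the measure of a 1.5-fold difference in either direction, 2 of the 8 factors were lower in Jagged1/PyMT T cells (Nr4a3 and Egr3), beside 7.36% of the 10951 genes measured there, and 2 were higher (Myc and Irf4), beside 9.16%. The median log2 ratio of all measured genes was 0.01. These T cells were spread differently over the clusters of the combined data: the 3 largest T clusters held 2585 PyMT and 654 Jagged1/PyMT cells, 1152 and 580, and 619 and 975. Summed macrophage markers, which T cells should lack, came to 16.4 CPM in the PyMT T gate and 81.0 in the Jagged1/PyMT T gate, and their part in the ratios was not tested.

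**Figure D2:**
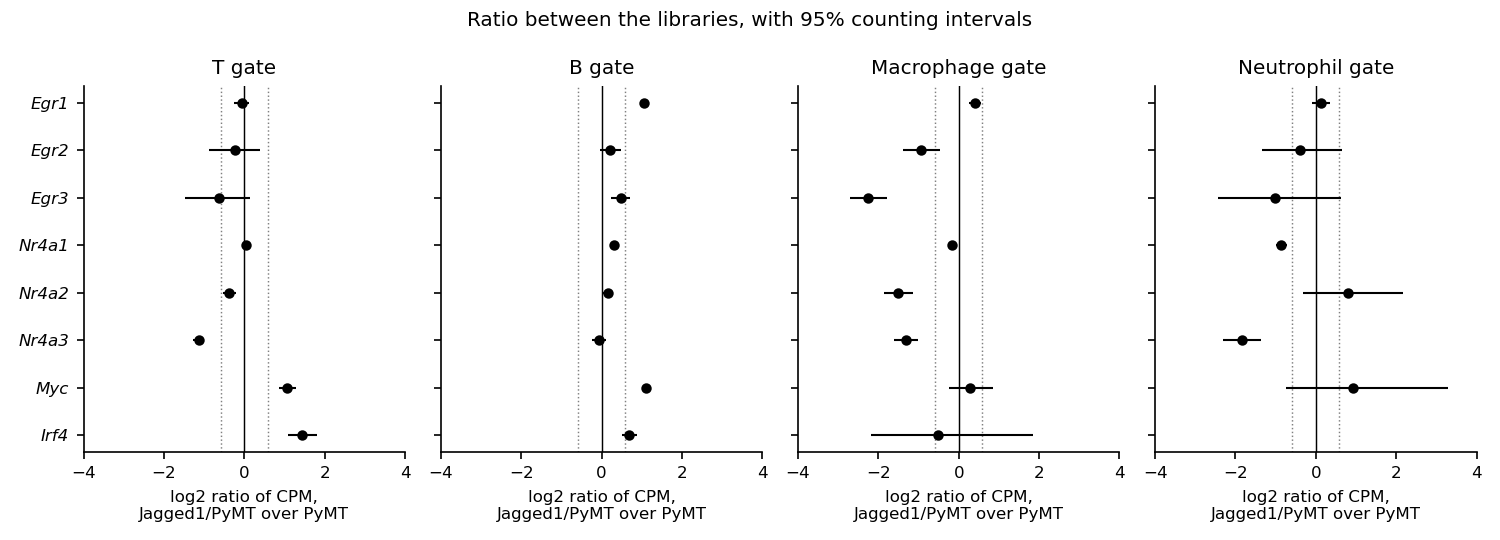
Log2 ratio of CPM, Jagged1/PyMT over PyMT, for each factor in the T, B, macrophage and neutrophil gates; bars are 95% exact counting intervals and dotted lines mark 1.5-fold. Nr4a3 sits left of 0 in T cells, macrophages and neutrophils and at -0.05 in B cells, and Irf4 of the neutrophil gate is left out for too few UMIs.

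Nr4a3 was lower in naive-like T cells of both lineages, in effector-like CD8 cells and in regulatory T-like cells. In naive-like CD4 T cells Nr4a3 had 119 and 59.9 CPM (-0.99), and in naive-like CD8 T cells 115 and 50.9 CPM (-1.18). In effector-like CD8 T cells it had 110.5 and 45.6 CPM (-1.28), and in regulatory T-like cells 191 and 104 CPM (-0.87). The large group of T cells with no Cd4 or Cd8 UMI, left unassigned here, had 119 and 43.7 CPM (-1.45). Why these cells lacked such UMIs was not tested. In 2 small subsets the interval included 0: effector-like CD4 cells (36 and 11 UMIs, -0.44, interval -1.56 to 0.57) and gamma-delta T-like cells (32 and 19 UMIs, -0.51, interval -1.41 to 0.35). Nr4a2 was lower in naive-like CD4 cells (21.0 and 8.86 CPM, -1.25) and regulatory T-like cells (156 and 70.5 CPM, -1.15), and by less in effector-like CD8 cells (113 and 91.1 CPM, -0.32).

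Myc and Irf4 did not move alike in every T subset. Myc was higher in Jagged1/PyMT in naive-like CD4 cells (16.5 and 33.9 CPM, 1.04) and in effector-like CD8 cells (15.7 and 48.0 CPM, 1.61). In naive-like CD8 cells its interval included 0 (25.9 and 34.8 CPM, 0.43, interval -0.26 to 1.08), and in regulatory T-like cells its levels were 27.7 and 27.3 CPM (-0.02). Irf4 was higher in naive-like CD4 cells (6.65 and 22.9 CPM, 1.79), in effector-like CD8 cells (4.01 and 9.85 CPM, 1.30) and in regulatory T-like cells (20.5 and 46.5 CPM, 1.18). Regulatory T-like cells therefore had more Irf4 and less Nr4a2 and Nr4a3 in the Jagged1/PyMT library with level Myc. Whether the ratios differ between subsets was not tested.

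**Figure D3:**
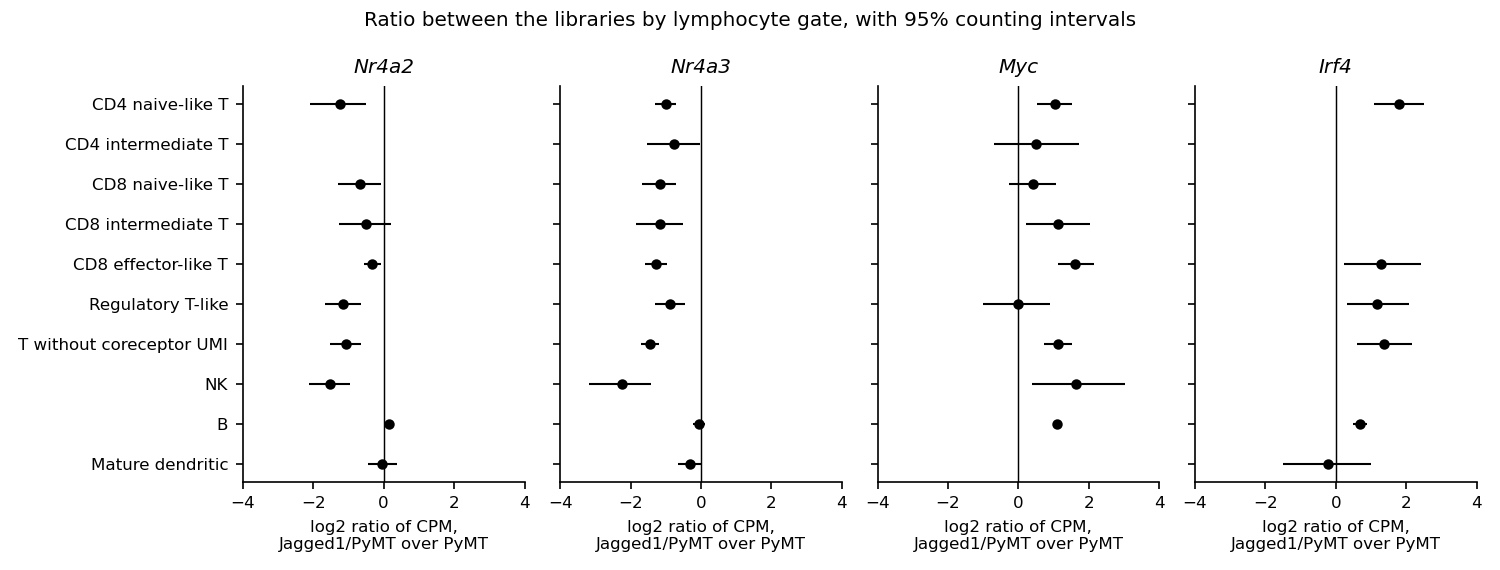
Log2 ratio of CPM, Jagged1/PyMT over PyMT, of Nr4a2, Nr4a3, Myc and Irf4 in 10 gates; bars are 95% exact counting intervals, and gates with too few UMIs of a gene have no point. All Nr4a3 points lie left of 0, the B cell one at -0.05, while most Myc and Irf4 points lie right of it.

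Counted over every gate with at least 20 cells in each library, Nr4a3 was lower in Jagged1/PyMT in 17 of the 17 gates in which it was measured, and its interval lay below 0 in 12. Nr4a2 was lower in 13 of 15 gates. Nr4a1 was lower in 7 and higher in 10 of 17. Myc was higher in 10 of 11 gates and Irf4 in 6 of 8. Several of these gates are subsets of the T gate, and all share the same 2 libraries, so they are not separate observations of the genotype. The largest Nr4a3 ratio was in NK cells, a small gate of 51 and 30 cells, at 372 and 78.3 CPM (-2.25, from 82 and 14 UMIs). NK cells also had less Nr4a2 (545 and 190.2 CPM, -1.52) and more Myc (36.3 and 112 CPM, 1.62). In plasmacytoid dendritic cells, with 22 and 31 cells, Nr4a2 had 179 and 29.5 CPM (-2.60, from 33 and 7 UMIs) and Irf4 59.6 and 147 CPM (1.31). In conventional dendritic cells, Egr1 had 379.9 and 41.6 CPM (-3.19, from 118 and 13 UMIs in 12 and 6 cells), and 1 barcode held 40 of the PyMT UMIs.

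In B cells Egr1, Myc and Irf4 were higher in Jagged1/PyMT, and Nr4a3 was level. Egr1 had 305 CPM in PyMT and 635 in Jagged1/PyMT (1.06, interval 0.97 to 1.15). Myc had 303 and 650.0 CPM (1.10, interval 1.01 to 1.19). Irf4, which in B cells marks strong receptor signals and plasma cell commitment, had 79.5 and 128 CPM (0.69, interval 0.50 to 0.88). Each of these 3 was over 1.5-fold higher in Jagged1/PyMT, beside 6.63% of the 9367 genes measured in B cells, and 0 of the 8 were over 1.5-fold lower, beside 8.28%.

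The other 5 factors were within 1.5-fold in B cells. Egr3 had 51.6 and 71.6 CPM (0.47, interval 0.23 to 0.72), but 1.14 in thinned cells and 0.60 with each cell weighted equally, which makes 4 factors over 1.5-fold higher in either case. Among B cells with 6 or more immediate early UMIs in 1000, Egr3 had 40.5 and 96.5 CPM (1.25, interval 0.71 to 1.81). Egr2 had 51.0 and 59.2 CPM (0.21, interval -0.04 to 0.47). Nr4a1 had 1372 and 1693 CPM (0.30, interval 0.26 to 0.35) and Nr4a2 245 and 272 CPM (0.15, interval 0.03 to 0.27). Nr4a3 was level at 125 and 120.5 CPM (-0.05). Macrophage markers summed to 14.6 and 58.4 CPM in the B gate, and their part was not tested.

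More B cells carried Myc in Jagged1/PyMT, and more of them carried many copies. After every cell was thinned to 1000 UMIs, the share of B cells with a Myc UMI was 17.0% in PyMT and 36.3% in Jagged1/PyMT (35.3% and 58.1% before thinning, at median depths of 3488 and 3179 UMIs). Mature dendritic cells, which had Myc at 7.29 and 4.23 CPM, gave 0 of 58 and 0 of 62 thinned cells, which allows shares with a UMI at that depth of up to 5.17% and 4.84% and sets no limit on cells expressing Myc. At full depth, B cells with 6 or more Myc UMIs made up 5.13% and 11.9% of the gate. Egr1 was held by fewer cells: 77.5% of PyMT and 73.3% of Jagged1/PyMT B cells had no Egr1 UMI, and the 90 and 141 cells with 6 or more held 69.0% and 84.3% of all Egr1 UMIs. Thinned shares for the other factors were 58.6% and 68.1% for Nr4a1, 6.86% and 10.3% for Irf4, 3.79% and 7.87% for Egr3, and 10.7% and 10.0% for Nr4a3.

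B cells with a UMI of one factor more often held another. At 1000 UMIs a cell, 29.3% of PyMT and 16.5% of Jagged1/PyMT B cells had a UMI of none of the 8, and 14.6% and 23.7% had UMIs of 3 or more. T cells were mostly without any (72.7% and 76.7%). For each ordered pair of factors, the share of cells with the one was compared between cells with and without the other. Both orders of a pair are counted and must point the same way, so the counts are not of separate pairs. It was higher in cells with the other for 56 of 56 pairs in B cells in each library, and the intervals lay apart for 47 pairs in PyMT and 44 in Jagged1/PyMT. The same held for 37 of 42 pairs in PyMT and 31 of 42 in Jagged1/PyMT T cells, and for 9 of 14 and 29 of 42 in macrophages, over pairs with enough cells, with intervals apart for 9, 7, 2 and 11 of them. Egr1 was found in 71.4% of PyMT B cells with Egr2 and 11.4% of those without, and in 75.4% and 15.2% in Jagged1/PyMT. Myc was found in 44.8% of PyMT B cells with Egr1 and 12.8% of those without, and in 65.5% and 29.8% in Jagged1/PyMT. Irf4 and Myc were paired more loosely: 40.4% of PyMT B cells with Irf4 and 15.3% of those without held Myc, and 54.7% and 34.2% in Jagged1/PyMT. Thinned cells all have the same depth.

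**Figure D4:**
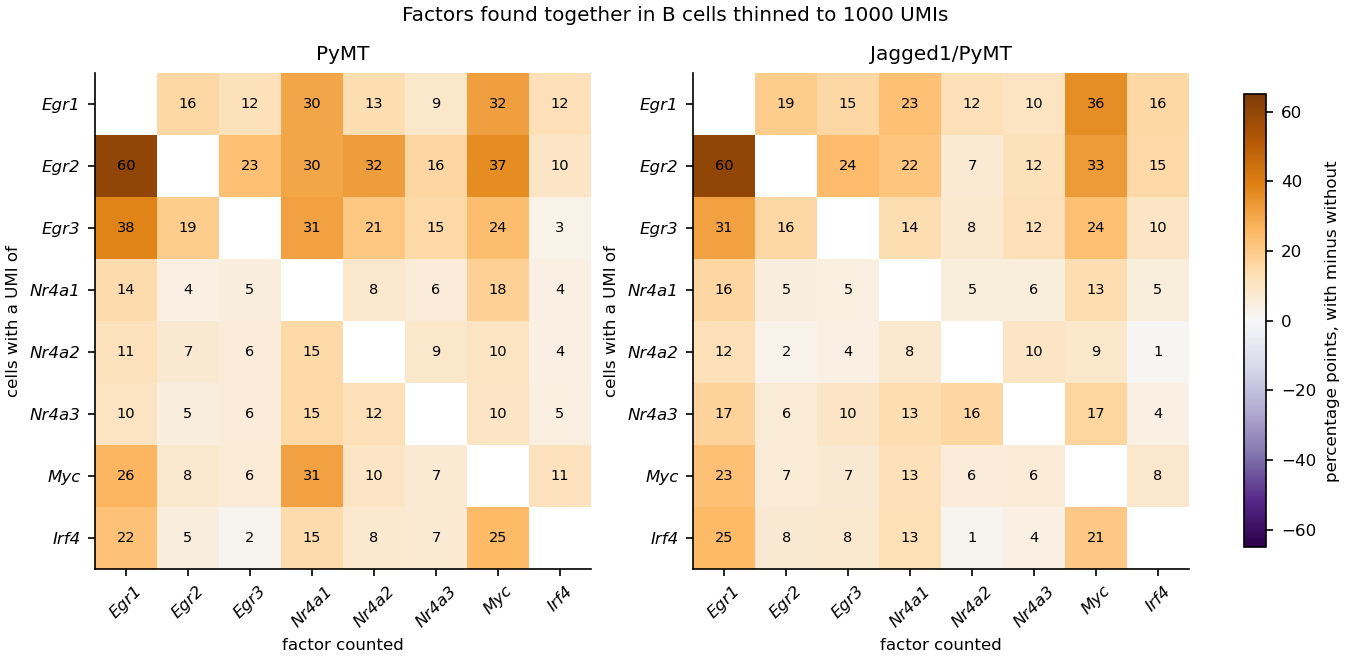
Difference in the share of thinned B cells with a UMI of the column factor, between cells with and without the row factor, in percentage points, for each library. All filled squares are above 0 in both panels, and the pairs of Egr1 with Egr2 are among the darkest.

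In macrophages, 4 factors were over 1.5-fold lower in Jagged1/PyMT, beside 13.7% of the 10886 genes measured, and 0 were higher, beside 15.1%. Egr3 had the largest ratio, at 47.6 and 9.92 CPM (-2.26, interval -2.71 to -1.80). Egr2 had 38.1 and 19.8 CPM (-0.94, interval -1.40 to -0.45). Thinned cells gave Egr2 a ratio of 0.22, with an Egr2 UMI left in only 2 PyMT cells. Egr1 had 322 and 428 CPM (0.41, interval 0.26 to 0.56), but its direction depended on the processing. Its ratio was 0.60 in cells chosen by clustering and 0.59 with the barcode richest in Egr1 left out of each library, both past 1.5-fold, and -0.04 in thinned cells. Among macrophages with 6 or more immediate early UMIs in 1000, Egr1 had 847 and 661 CPM (-0.36, interval -0.74 to 0.04). Nr4a2 had 69.3 and 24.5 CPM (-1.50, interval -1.85 to -1.14) and Nr4a3 102 and 41.1 CPM (-1.32, interval -1.60 to -1.02). In PyMT, macrophages with 6 or more UMIs numbered 7 for Nr4a2, 5 for Nr4a3 and 2 for Egr3. Such cells held 65%, 32.2% and 38.2% of the UMIs of that factor, against 17.4%, 13.4% and 4.17% in Jagged1/PyMT. Nr4a1 differed by much less, at 734 and 659 CPM (-0.16, interval -0.26 to -0.05), and was 0.20 in cells chosen by clustering. Myc had 27.7 and 33.7 CPM (0.28). In macrophages as in T cells, Nr4a3 and Nr4a2 had ratios below that of Nr4a1, and the difference between the factors was not tested. T cell markers summed to 65.8 CPM in the PyMT macrophage gate and 29.2 in the Jagged1/PyMT gate, the PyMT gate has 139 cells against 1614, and median depths were 7073 and 9410 UMIs. The part of these in the ratios was not tested.

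Neutrophils repeated the lower Nr4a3. It had 176 and 49.1 CPM (-1.84, interval -2.32 to -1.36), and Nr4a1, at its highest here in PyMT, had 1473 and 811 CPM (-0.86, interval -1.004 to -0.72). Egr1 had 519.8 and 565 CPM (0.12) and Egr2 33.5 and 25.3 CPM (-0.40). Of the 7 factors measured, Nr4a3, Nr4a1 and Egr3 were over 1.5-fold lower, beside 14.0% of 6578 genes. Nr4a2 (0.80, from 7 and 66 UMIs) and Myc (0.93, from 3 and 31 UMIs) were over 1.5-fold higher, beside 31.5%, and all genes together had a median of 0.20 in this gate. Neither was stable: Nr4a2 was -1.34 in cells chosen by clustering, and Myc was -1.65 in thinned cells. Macrophage markers summed to 1372 CPM in the PyMT neutrophil gate and 4149 in the Jagged1/PyMT gate, and their part was not tested.

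Nr4a3 was also lower in RNA outside cells. In barcodes under 100 UMIs, which hold free RNA, Nr4a3 had 169 CPM in PyMT and 63.3 in Jagged1/PyMT, Nr4a2 113 and 47.7, Myc 101 and 67.6, and Irf4 31.8 and 11.7. From genes that each gate should lack, free RNA could make up at most 3.63% and 2.94% of T cell UMIs, 6.72% and 2.63% of B cell UMIs, and 12.1% and 25.5% of macrophage UMIs. For neutrophils the same estimate gave 100% and 94.8% and is of no use. With free RNA subtracted at these shares, the log2 ratio in T cells was -1.12 for Nr4a3, 1.31 for Myc and 1.74 for Irf4, and in B cells 0.00 for Nr4a3, 1.07 for Myc and 0.66 for Irf4.

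Other genes of the pathways were counted from lists by role, over all measured genes of a gate the shares past 1.5-fold being 9.16% higher and 7.36% lower in T cells, 6.63% and 8.28% in B cells, and 15.1% and 13.7% in macrophages. Of 19 antigen receptor and NFAT response genes measured in T cells, 8 were over 1.5-fold higher in Jagged1/PyMT and 0 lower (median 0.40). Cd83, a surface protein of activated lymphocytes, had 13.4 and 27.2 CPM in T cells (1.01), and Dusp2, a phosphatase that dampens MAP kinases, 230 and 339 CPM (0.56). In B cells 3 of 10 were higher and 0 lower (median 0.33), with Cd83 at 1081 and 1560 CPM (0.53). In macrophages 1 was higher and 4 lower of 15 (median -0.23), and Ccl4, a chemokine, had 2626 and 2497 CPM (-0.07).

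Egr cofactors and targets differed little in T and B cells and more often in macrophages. In T cells 0 of 8 passed 1.5-fold in either direction (median -0.23). Cblb, a ubiquitin ligase that restrains T cells, had 213 and 172 CPM (-0.31), and Dgka, a kinase that removes diacylglycerol, 252 and 227 CPM (-0.15). In macrophages 3 of 8 were lower and 0 higher (median -0.44), Cblb among them with 32.9 and 17.5 CPM (-0.91). In B cells 1 of 7 was higher and 1 lower. Of the genes linked to Nr4a in restrained T cells, 1 of 4 was higher and 0 lower in T cells, with Tox, a factor of exhausted T cells, at 93.4 and 91.0 CPM (-0.04) and Ctla4, an inhibitory receptor, at 57.2 and 71.8 CPM (0.33). In macrophages 0 of 4 were higher and 3 lower (median -1.31), beside the T cell markers that were also lower in that gate, and the part of those was not tested.

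Myc targets differed little in B and T cells. Of 12 Myc targets, 0 were over 1.5-fold higher and 0 lower in B cells (median -0.21), where Myc itself was over 2-fold higher in ratio, and Ncl, a nucleolar protein, had 544 and 469 CPM (-0.21). In T cells 1 of 12 was higher and 0 lower (median 0.03), with Npm1, another nucleolar protein, at 1167 and 1181 CPM (0.02). In macrophages 3 of 12 were higher and 0 lower (median 0.23), among them Ldha, which makes lactate, at 593 and 1030 CPM (0.80). Among partners and antagonists 2 were higher and 2 lower of 8 in T cells, and Mxd1, which competes with Myc for Max, had 137 and 106 CPM (-0.37). Within a library, B cells with a Myc UMI held more of the target list than those without, 2.78 and 2.33 UMIs per 1000 in PyMT and 2.32 and 2.03 in Jagged1/PyMT.

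Partners and relatives of Irf4 were higher in 1 of 9 and lower in 0 in T cells (median 0.44). Irf8, a related factor of B cells and dendritic cells, had 259 and 336 CPM in B cells (0.37), and Spi1, the DNA-binding partner PU.1, had 110.1 and 123 CPM there (0.16). Spi1 is also a myeloid gene, and its 2.02 and 5.49 CPM in T cells (1.44) stand beside the macrophage markers given above. General immediate early and dissociation genes, which tissue digestion also induces, were over 1.5-fold higher for 9 of 15 in B cells (median 0.69), 5 of 16 in T cells (median 0.26) and 5 of 16 in macrophages (median 0.26), and lower for 0 in each. Fos had 375 and 618 CPM in B cells (0.72). Their part in the ratios of the factors was not tested. The levels of the factors are given next in cells grouped by how much of these lists they held.

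Among B cells with 6 or more UMIs of the immediate early list in 1000, Myc had 324 and 695 CPM (1.10, interval 0.91 to 1.29). Among those with 3 to 5 it had 187 and 539 CPM (1.53). Among those with 0 to 2 it had 206 and 182 CPM (-0.18, interval -1.85 to 1.29, from 14 and 6 UMIs), too few to tell. Egr1, itself an immediate early gene, had 380 and 730 CPM (0.94, interval 0.76 to 1.12) in B cells with 6 or more. In those with 3 to 5 it had 161 and 78.3 CPM (-1.04), from only 51 and 9 UMIs, with an interval of -2.25 to -0.008. B cells with 6 or more made up 72.0% and 88.1% of the gate. In T cells, Nr4a3 was lower at each level of the antigen receptor list: 103 and 45.9 CPM with 0 UMIs of it (-1.16), 117 and 58.0 CPM with 1 (-1.01), and 157 and 83.2 CPM with 2 or more (-0.92). Nr4a2 was lower with 0 (-1.16) and 1 (-1.04) and near level with 2 or more (-0.11). Myc in T cells had 20.7 and 23.4 CPM with 0 (0.18, interval -0.57 to 0.89, from 53 and 25 UMIs). It was higher with 1 (1.22, interval 0.34 to 2.14) and with 2 or more (0.86, interval 0.09 to 1.63). In macrophages with 6 or more immediate early UMIs, Nr4a3 had 181 and 50.1 CPM (-1.85).

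**Figure D5:**
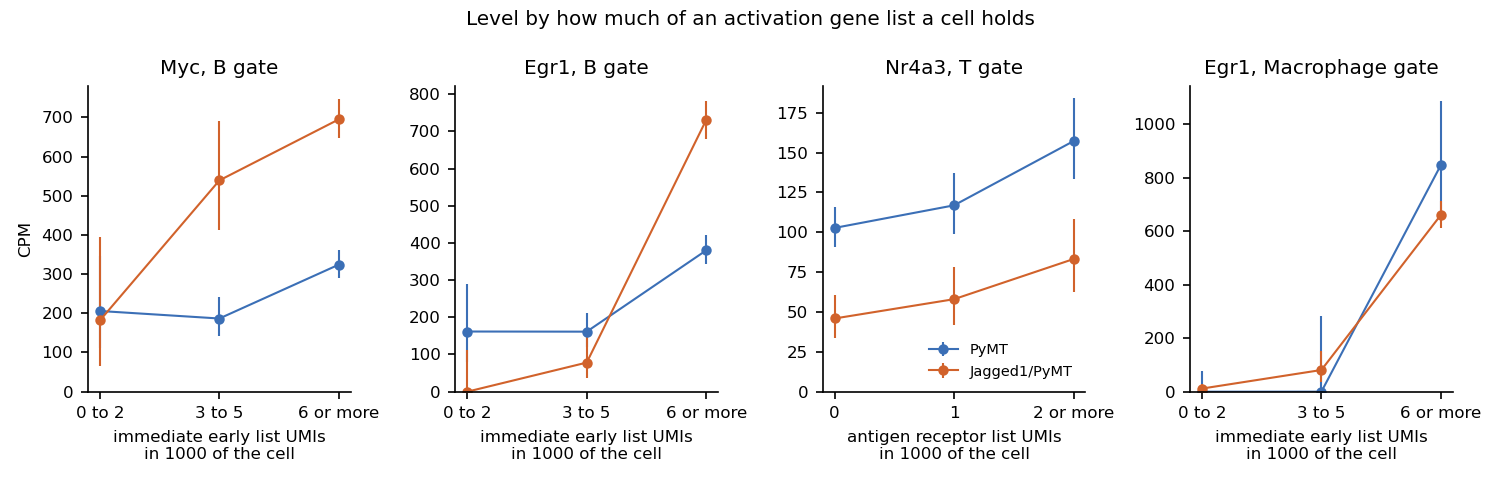
Level in CPM of Myc and Egr1 in B cells, Nr4a3 in T cells and Egr1 in macrophages, by the number of UMIs of an activation list in 1000 UMIs of the cell, with PyMT in blue and Jagged1/PyMT in orange; bars are 95% exact Poisson intervals. Nr4a3 climbs with the antigen receptor list in both libraries, and Jagged1/PyMT stays lower at each step.

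Across the 11 gates of both libraries, 22 points that share libraries and cells of nested gates, the factors fell into sets by likeness of level, given as Pearson's r of log2(CPM + 10). Egr1 was like Egr2 (0.93) and Nr4a1 (0.90), and Egr2 like Nr4a1 (0.92). Nr4a3 was unlike Nr4a1 (0.09) and closest among the members to Nr4a2 (0.61). Egr3 was like Egr2 (0.90), Nr4a1 (0.83) and Egr1 (0.78). Myc had 0.70 with Egr3 and 0.66 with Irf4. Of 10526 genes searched, the nearest to Egr1 were Dok3, March1 and Lyn (0.98, 0.98 and 0.96), and the nearest to Nr4a1 were Arhgap24, Pik3ap1 and Sypl (0.96, 0.96 and 0.94). Nearest to Egr2 were Gm26857, Pik3ap1 and Arap1 (0.95 each), and nearest to Egr3 Gm26857, Cd180 and Ciita (0.92, 0.92 and 0.91). Nearest to Myc were Lynx1, Pou2af1 and Iglc3 (0.92, 0.92 and 0.91), and nearest to Irf4 Il9r, Ap1s3 and Clasp1 (0.90, 0.87 and 0.87). Nr4a2 had looser neighbours, Nedd4, Epcam and Pim3 (0.88, 0.86 and 0.85), and Tnip1 and Pnpla8 (0.84 and 0.83) were among the nearest to Nr4a3.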

How the data were processed

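The authors deposited raw UMI counts per gene and barcode, 1 matrix per genotype, which Cell Ranger 3.0.2 made, per the submitters' processing notes. Neither the labels nor the file headers name an aligner or a genome build. The matrices list every barcode, so cells were called here by the UMI, gene and mitochondrial limits given above. T and B cells entered a gate with at least 3 UMIs of that lineage's core genes. They held at most 2 UMIs, or 10% of their own, of the other lymphocyte's genes and of myeloid genes. Macrophages and neutrophils needed at least 10 UMIs of their markers, with the same limit on T and B genes. Neutrophils needed more neutrophil than macrophage UMIs, and neither gate had another limit on the other's markers. Minimums were 2 UMIs for NK and conventional dendritic cells, 3 for mature dendritic cells and monocytes and 5 for plasmacytoid dendritic cells. Gate limits were set after the data were seen, and the members and gene lists were chosen with earlier results of these data known. Doublets were limited by these gates. Scanpy's scrublet found 3 and 0 by its automatic threshold, so removing the top expected share (443 and 496 barcodes) served only as an alternative. UMI counts were summed per gate and given as CPM with exact Poisson intervals, shares with exact Clopper-Pearson intervals and ratios with exact conditional binomial intervals, all at 95%. A gene was measured in a gate with at least 20 UMIs over both libraries. Cells were thinned to 1000 UMIs for shares. List genes named are the 3 with most UMIs per list, those cited as stress, cell type or depth measures, and the 3 nearest genes per factor by likeness, of which 1 is not reported here. The ratio step was run on simulated counts. In T cells (10951 genes), 95.5% of unchanged genes had an interval that covered their true ratio. Of genes changed 2-fold there, 91.5% had an interval excluding 0. These shares were 95.9% and 82% in B cells (9367 genes), and 96.8% and 60.5% in macrophages (10886 genes). Unchanged genes past 1.5-fold made up 4.69% in T cells, 5.77% in B cells and 16.9% in macrophages. The intervals cover counting error only, and their coverage with spread between cells or mice was not tested. Promoter coordinates follow the RefSeq build named beside them. Python 3.11.15, numpy 2.4.6, scipy 1.17.1, pandas 2.3.3, scanpy 1.11.5 and matplotlib 3.10.9 were used.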

Additional observations from a re-analysis of the deposited data

Results flagged for a closer look

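For some factors the ratio of Jagged1/PyMT to PyMT pointed one way in one cell type and the opposite way in another, each with a counting interval clear of 0. With 1 library per genotype these differences between cell types were not tested. Egr3 was higher in Jagged1/PyMT B cells and lower in macrophages, and its log2 ratios differed by 2.74 (B minus macrophage). Nr4a2 had the same pattern, with a difference of 1.65 between B cells and macrophages, and it was lower in T cells and higher in B cells, a difference of -0.53 (T minus B). Nr4a1 was higher in B cells and lower in macrophages and neutrophils, with differences of 0.46 (B minus macrophage) and 1.16 (B minus neutrophil). The Nr4a1 ratio in macrophages was 0.20 in cells chosen by Leiden clustering, so its opposite direction there did not hold under that alternative.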

How the results depend on the processing

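No paired analysis was possible because the samples of each genotype lie together in 1 matrix without sample marks, and for the same reason no replicate could be left out. The alternatives changed the cell filter, the gates, doublets, clustering in place of gates, thinning, equal weight per cell, the markers of other lineages, centring on the median gene, the UMI minimum of list genes and the subtraction of free RNA. Of single ratios and list medians, 296 stayed (a ratio within its counting interval, a median within 0.2), 33 moved past that and 4 reversed, and of counts of factors past 1.5-fold, 69 stayed and 11 moved. Nr4a3 in T cells ranged from -1.15 to -0.98, Myc from 0.74 to 1.31 and Irf4 from 1.23 to 1.76. In B cells Egr1 ranged from 1.03 to 1.14 and Myc from 1.07 to 1.22. In macrophages Egr3 ranged from -2.85 to -1.37 and Nr4a3 from -1.54 to -1.07. Of the counts, 1 factor in place of 2 was lower in T cells with Leiden clusters and with equal weight per cell. In macrophages 2 in place of 4 were lower after thinning, and 1 in place of 0 was higher with Leiden clusters. With the barcode richest in each factor left out, an alternative chosen after seeing the data, 2 macrophage factors were higher. In neutrophils 1 in place of 2 was higher in cells with no UMI of T, B or epithelial markers, and 0 with Leiden clusters, thinning or equal weight. Subtracting free RNA gave 1 in place of 3 lower and 0 higher in neutrophils. The estimated shares there were 100% and 94.8%, so these values are of no use, although the counts above include them. Among ratios past 1.5-fold, Egr2 in macrophages reversed after thinning (0.22), which left an Egr2 UMI in only 2 PyMT cells. The others that reversed were Nr4a2 in neutrophils with Leiden clusters (-1.34), and Myc in neutrophils after thinning (-1.65) and with equal weight (-0.080). Smaller ratios that changed sign past their counting interval were Egr1 in T cells (0.12) and Nr4a1 in macrophages (0.20) with Leiden clusters, and Egr1 in macrophages after thinning (-0.04). Egr3 in B cells moved to 1.14 after thinning. The cause was not tested. Neutrophil and small-gate values rest on few UMIs.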
